A study of Mus musculus with 6 samples.

Results

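The genes described here encode 9 cell-surface proteins that immunologists use to place mouse B-lineage cells in their early stages: Cd24a, Spn, Cd93, Enpep, Bst1, Ly6d, Ly6a, Cd72 and Cd2. They were chosen by gene symbol, and each was read by 1 probe set, 9 of the 28350 probe sets of the array table. The study ran 6 Affymetrix arrays in 3 groups of 2. Every group used the same Ebf1-/- pre-pro-B cell line, kept on an OP9 stromal layer with the cytokines flt3-ligand, IL-7 and SCF (10 ng/ml of each), and RNA was taken 24 hours after retroviral transduction. Control cells received the empty MigR1 virus, EBF1 cells the MigY-EBF1 virus and Pax5 cells the MigR-Pax5 virus. Cells were sorted for expression before RNA isolation. All groups therefore lack Ebf1 from the germline and come from 1 line, and the EBF1 vector is labelled with another backbone (MigY) than the Control vector (MigR), so that an effect of EBF1 and an effect of its backbone cannot be told apart here. The labels number the arrays 1 and 2 in each group without saying that they came from separate transductions, so the p-values cover the spread between these arrays alone, and that spread may be technical.

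B-cell development in the bone marrow is followed by antibodies against surface proteins, because their levels change in a fixed order as a progenitor becomes a pro-B and then a pre-B cell. In the classical scheme, CD43 (Spn) marks the early fractions, heat-stable antigen (Cd24a) appears as cells commit to the lineage, and the aminopeptidase BP-1 (Enpep) together with BP-3 (Bst1) marks later pro-B and pre-B cells. Ly6d divides common lymphoid progenitors into those biased to B cells and those that keep other options, and Sca-1 (Ly6a) and CD93 (the AA4.1 antigen) are carried by stem and progenitor cells. EBF1 specifies the lineage and acts upstream of Pax5, which commits cells to it.

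Of the 9 genes, 8 lay above the filter on low values and were tested. Bst1 did not, and is given by its values alone. Values are log2 RMA values, a normalized signal on which 1 unit is a doubling, and a change is the difference of group means from limma, called at a Benjamini-Hochberg adjusted p of 0.05 over 15279 genes. Against Control, Cd24a, Ly6d and Cd72 were higher in EBF1 cells and Spn and Cd93 were lower, while Ly6a, Cd2 and Enpep were not called. These 5 calls among 8 markers stand beside 5.61% of all tested genes, with 3.14% called higher and 2.47% called lower. In Pax5 cells, Cd24a, Enpep and Cd72 were higher and Ly6d was lower than in Control, 4 calls beside a background of 4.23% (2.17% higher and 2.06% lower). Set directly against each other, Ly6d and Ly6a were higher in EBF1 cells and Cd24a, Enpep, Spn and Cd93 were lower, 6 calls beside a background of 13.9% (8.72% higher and 5.21% lower). The median change of the 8 markers was 0.44 with EBF1 and 0.05 with Pax5, beside 0.009 and -0.037 over all genes. In these bulk samples, fewer cells of a type and less RNA per cell cannot be told apart. The markers were chosen as known B-lineage genes with results of these data in view, so these shares describe the list and do not set it apart from other genes. Both factors were compared with the same Control arrays.

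**Figure D1:**
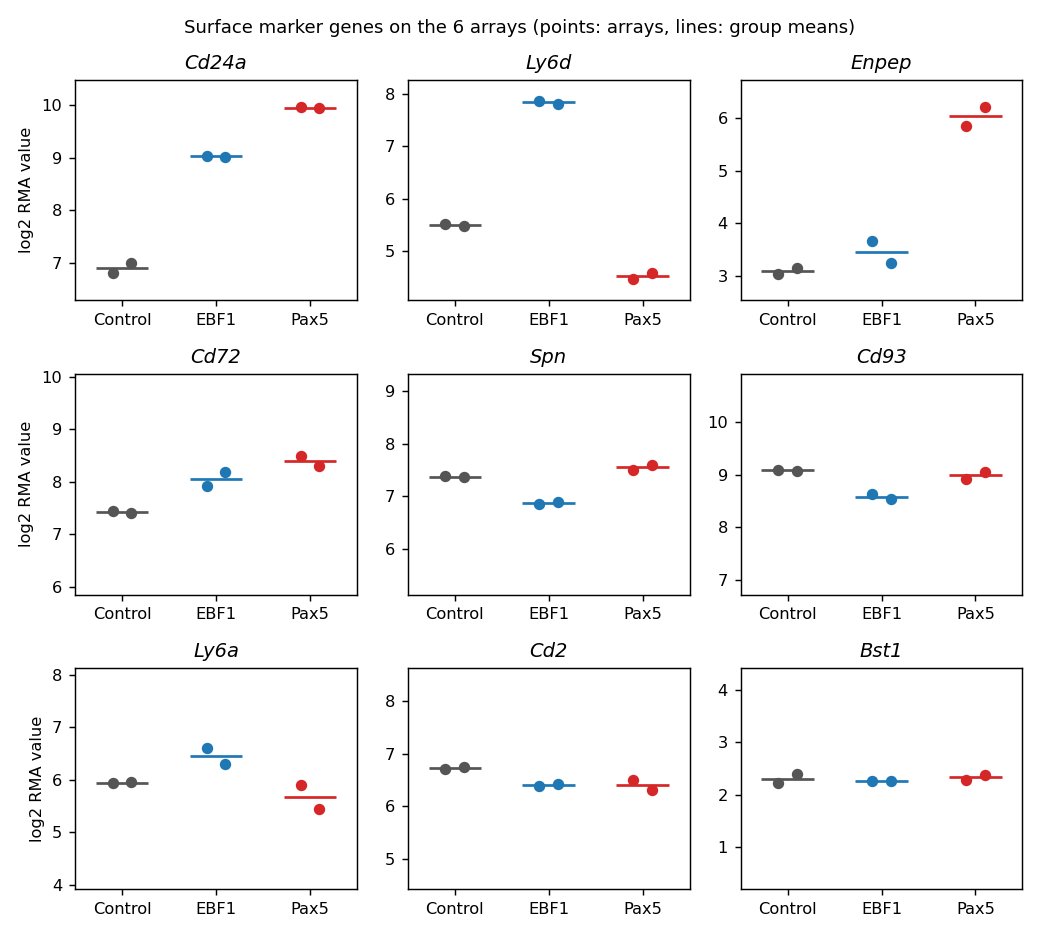
Log2 RMA value (vertical axis) of the 9 marker genes on each of the 6 arrays, with Control in grey, EBF1 in blue and Pax5 in red; points are arrays and lines are group means. Cd24a climbs from Control to EBF1 to Pax5, Ly6d is highest in EBF1 and lowest in Pax5, Enpep is high only on the Pax5 arrays, and Bst1 stays near 2.3 on all 6 arrays.

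Most of the 12 lymphoid progenitor markers listed were well above the filter: Ptprc (B220 and other CD45 forms) lay between 9.53 and 9.86, Flt3 between 9.52 and 10.05, Il7r between 9.05 and 9.85 and Kit between 7.13 and 8.42. Cd79a was an exception at 2.85 to 3.62, near the 30th percentile of the arrays (2.92 to 3.04). In this list 4 markers were lower and 0 higher than Control with EBF1 (median -0.30), and 4 lower and 0 higher with Pax5 (median -0.04), by limma. Over all tested genes, 3.14% were called higher and 2.47% lower with EBF1, and 2.17% higher and 2.06% lower with Pax5. Dntt, the terminal transferase gene, had the largest fall of the list with both, a change of -1.75 in EBF1 cells (adjusted p = 0.0021) and of -1.27 in Pax5 cells (adjusted p = 0.0057, lost without either Control array). Pax5 RNA rose by 6.36 in Pax5 cells (SE 0.10, adjusted p = 5.1e-06) and by 1.07 in EBF1 cells (SE 0.10, adjusted p = 0.0043), so EBF1 cells also held more Pax5 RNA than Control. The second of these calls was lost without Control 1 or EBF1 2 (adjusted p up to 0.059). Ebf1 RNA, in its brightest probe set, was 8.87 on both Control arrays and rose by 1.05 in EBF1 cells (adjusted p = 0.0023). A further Ebf1 probe set went the other way, at 4.70 and 4.75 in Control, 4.37 and 4.25 in EBF1 cells and 6.02 and 6.04 in Pax5 cells, and the call was lost with the mean of both, so the 1.05 holds for 1 probe set only. Since the files do not say which probes lie in the deleted part, neither level checks the deletion. The 2 Pax5 arrays differed more from each other (SD of the difference over tested genes 0.263) than the Control (0.152) or EBF1 (0.161) arrays. The log2 values of 12 stromal markers summed to between 56.1 and 56.8 in Control, 57.9 and 59.4 in EBF1 and 57.6 and 60.9 in Pax5 cells, with 10 or 11 of the 12 above the 30th percentile on each array. Of these, 10 were tested and 1 was called against Control, Bgn with EBF1 (0.62, adjusted p = 0.017). The higher stromal sum of the Pax5 cells (60.9) was that of array Pax5 2, and the lower (57.6) that of Pax5 1. The sums of 10 myeloid markers were 40.4 to 41.2, 39.2 to 40.5 and 40.6 to 43.7 in the same order. Of the 8 tested in limma, 1 was lower with each factor and 0 were higher. These were Itgam with EBF1 (-1.06, adjusted p = 0.019) and Mpo with Pax5 (-1.03, adjusted p = 0.0044), both lost without either Control array. S100a9, not called, was at 6.45 on Pax5 2, 4.85 on Pax5 1 and 4.25 on both Control arrays. In the T cell list 1 of 9 tested markers was higher with EBF1. In the NK cell list (6 tested) 1 was lower with EBF1 and 1 higher with Pax5. In the plasmacytoid dendritic cell list (6 tested) 1 was higher and 2 were lower with each factor. In the erythroid list (5 tested) 1 was higher with EBF1 and 1 lower with Pax5. These counts stand beside the shares over all genes given above, and no list was tested as a set. The part of these other cell types in the marker results was not tested.

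Cd24a encodes heat-stable antigen, a small GPI-anchored glycoprotein of immature lymphocytes (probe set 10362896, chromosome 10). It was at 6.80 and 6.99 on the Control arrays, 9.04 and 9.02 on the EBF1 arrays, and 9.97 and 9.94 on the Pax5 arrays. The 3 groups did not overlap, and the arrays of EBF1 and of Pax5 cells lay within a few hundredths of each other. The rise was 4.40-fold with EBF1 (log2 2.14, SE 0.09, adjusted p = 0.0003) and 8.36-fold with Pax5 (log2 3.06, SE 0.09, adjusted p = 0.00012). The direct comparison placed EBF1 cells below Pax5 cells by 0.93 (SE 0.09, adjusted p = 0.0023). All 3 calls held whichever array was left out.

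Spn encodes CD43, a heavily glycosylated sialomucin that early B-cell fractions carry and later pre-B cells lose (probe set 10568174, chromosome 7). It was at 7.38 and 7.36 in Control, 6.86 and 6.89 in EBF1 cells, and 7.51 and 7.60 in Pax5 cells. Both EBF1 arrays were below all the others. Spn fell by 0.49 with EBF1 (SE 0.08, adjusted p = 0.02). Its change with Pax5 was 0.19 (95% interval 0.00 to 0.37, adjusted p = 0.23). The direct comparison was -0.68 (SE 0.08, adjusted p = 0.0041), so Spn was lower in EBF1 than in Pax5 cells. When 1 array was left out, the EBF1 change ran from -0.50 to -0.48 and the direct difference from -0.72 to -0.63. The EBF1 call was lost without either Control or either EBF1 array, and the direct call without EBF1 1.

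RefSeq promoter sequences (assembly GRCm38.p6, 250 bases before to 50 after an annotated start, written 5′ to 3′ on the gene's strand) matched 3 of the 9 genes: Spn, Enpep and Cd72. The Spn window, at chr7:127137774-127138073 on the minus strand, is shown because Spn fell with EBF1 and differed between the factors.
Spn: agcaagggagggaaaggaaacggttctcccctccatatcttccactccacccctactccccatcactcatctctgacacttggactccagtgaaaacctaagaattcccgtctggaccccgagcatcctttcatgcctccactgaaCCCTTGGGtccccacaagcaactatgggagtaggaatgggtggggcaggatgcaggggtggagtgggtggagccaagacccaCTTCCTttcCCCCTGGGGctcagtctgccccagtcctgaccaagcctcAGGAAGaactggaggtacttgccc
Capitals mark matches, on either strand, to 4 motifs searched by their letters: the EBF1 core CCCNNGGG, the E-box CAGGTG bound by E2A, GCGTGAC from the Pax5 paired-domain site, and the ETS core CTTCCT. The Spn window held the EBF1 core at 3 positions, starting at -104, -13 and -12 from the transcript start, the last of which overlap each other, and the ETS core at -22 and, on the opposite strand, at 27. Over all 32851 RefSeq promoter windows of this length, 13.7% held the EBF1 core, 35.4% the ETS core, 20.2% the E-box and 2.09% the Pax5 letters. A match is a stretch of letters and does not show binding.

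Cd93 encodes a C-type lectin-like transmembrane protein recognized by the AA4.1 antibody, a marker of immature B-lineage cells and of progenitors (probe set 10488382, chromosome 2). It was at 9.10 and 9.07 in Control, 8.63 and 8.54 in EBF1 cells, and 8.93 and 9.05 in Pax5 cells. The EBF1 arrays were the lowest, and the Pax5 arrays lay just under the Control arrays. Cd93 fell by 0.50 with EBF1 (SE 0.08, adjusted p = 0.026). Its change with Pax5 was -0.09 (95% interval -0.30 to 0.11, adjusted p = 0.57). EBF1 cells were lower than Pax5 cells by a difference of -0.41 (SE 0.08, adjusted p = 0.027). When 1 array was left out, the EBF1 change ran from -0.55 to -0.45 and the direct difference from -0.47 to -0.35. The EBF1 call was lost without any of the Control or EBF1 arrays, and the direct call without each array other than Pax5 1. Both were also lost with all probe sets as the unit (0.059 and 0.057) and with the replicate block (0.057 and 0.051), and the direct call with only the 4 arrays compared.

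Enpep encodes glutamyl aminopeptidase, the BP-1 antigen of late pro-B and pre-B cells (probe set 10502081, chromosome 3). It was at 3.04 and 3.14 in Control, 3.66 and 3.24 in EBF1 cells, and 5.85 and 6.22 in Pax5 cells. The Control values were just above the 30th percentile of those arrays (2.99 and 2.92), and both Pax5 arrays stood far above all the others. The rise with Pax5 was 7.69-fold (log2 2.94, SE 0.18, adjusted p = 0.0014). With EBF1 the change was 0.35 (95% interval -0.07 to 0.78, adjusted p = 0.34), and the EBF1 arrays differed between themselves by more than that. EBF1 cells were below Pax5 cells by a log2 difference of -2.59 (SE 0.18, adjusted p = 0.00084), a 6.02-fold gap. The Pax5 call and the direct call held whichever array was left out. RMA gives no detection call, so whether Control or EBF1 cells carried Enpep signal above background was not tested, and both folds are ratios of RMA values near the filter on 1 side.

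The Enpep promoter, at chr3:129332700-129332999 on the minus strand, is shown because this gene had the sharpest contrast between the factors apart from Ly6d.
Enpep: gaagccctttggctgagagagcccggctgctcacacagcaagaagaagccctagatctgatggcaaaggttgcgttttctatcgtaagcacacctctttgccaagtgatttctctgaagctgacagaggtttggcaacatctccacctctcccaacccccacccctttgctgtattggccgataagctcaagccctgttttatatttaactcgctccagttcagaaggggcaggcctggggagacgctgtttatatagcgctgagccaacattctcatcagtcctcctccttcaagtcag
None of the 4 motifs has a match in this window, which is therefore all in lower case.

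Bst1 encodes BP-3 (CD157), a GPI-anchored ADP-ribosyl cyclase of early B cells and stromal cells (probe set 10521667, chromosome 5). It was at 2.23 and 2.39 in Control, 2.27 and 2.26 in EBF1 cells, and 2.29 and 2.38 in Pax5 cells. All 6 values lay below the lower quartile of their arrays (2.72 to 2.87), and the groups overlapped. Bst1 was not among the genes tested in limma. The authors' deposited test per probe set gave it a step-up p of 0.94 with EBF1, 0.89 with Pax5 and 0.68 for Pax5 against EBF1. At this signal level these values do not show that the groups were alike.

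Ly6d encodes a small GPI-anchored protein of the LY6/uPAR family (probe set 10429520, chromosome 15). It was at 5.52 and 5.48 in Control, 7.86 and 7.81 in EBF1 cells, and 4.47 and 4.59 in Pax5 cells. The EBF1 arrays were the highest and the Pax5 arrays the lowest, and no groups overlapped. Ly6d rose 5.04-fold with EBF1 (log2 2.33, SE 0.08, adjusted p = 0.00024). With Pax5 it fell by 0.97 (SE 0.08, adjusted p = 0.0038), to a level 1.95-fold lower than Control. The direct difference of 3.30 (SE 0.08, adjusted p = 4.5e-05) was a 9.85-fold gap between EBF1 and Pax5 cells. The rise and the direct difference held whichever array was left out, whereas the fall with Pax5 missed the threshold without either Control array. That fall ran from -1.03 to -0.91 when 1 array was left out.

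Ly6a encodes Sca-1, another protein of the family and a marker of stem cells and early progenitors (probe set 10429564, chromosome 15). It was at 5.94 and 5.95 in Control, 6.61 and 6.31 in EBF1 cells, and 5.91 and 5.44 in Pax5 cells. Both EBF1 arrays were above Control and both Pax5 arrays below it, array Pax5 1 only slightly. The change was 0.52 with EBF1 (95% interval 0.09 to 0.94, adjusted p = 0.17) and -0.27 with Pax5 (-0.69 to 0.16, adjusted p = 0.43), neither of them called. The direct difference was 0.79 (SE 0.17, adjusted p = 0.035), and of the 6 fits that left out 1 array, only that without Pax5 1 kept the call (adjusted p 0.0085, and up to 0.19 in the others). It was also lost with all probe sets as the unit and with only the 4 arrays compared.

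Cd72 encodes a C-type lectin-like inhibitory co-receptor of B cells that recruits the phosphatase SHP-1 through a cytoplasmic motif (probe set 10512470, chromosome 4). It was at 7.44 and 7.41 in Control, 7.92 and 8.18 in EBF1 cells, and 8.49 and 8.29 in Pax5 cells. Both vector groups were above Control, and they came close to each other without overlapping. Cd72 rose 1.54-fold with EBF1 (log2 0.63, SE 0.12, adjusted p = 0.037) and 1.96-fold with Pax5 (log2 0.97, SE 0.12, adjusted p = 0.011). EBF1 minus Pax5 was -0.34 (95% interval -0.63 to -0.06, adjusted p = 0.11), not called. When 1 array was left out, the EBF1 rise ran from 0.50 to 0.75 and the Pax5 rise from 0.86 to 1.07. The EBF1 call was lost without either Control or either EBF1 array. It was also lost with no filter on low values, with all probe sets as the unit (adjusted p = 0.079) and with the replicate block (0.073). The Pax5 call was lost without either Control array.
The Cd72 promoter, at chr4:43454577-43454876 on the minus strand, is shown beside that of Enpep since both genes rose with Pax5.
Cd72: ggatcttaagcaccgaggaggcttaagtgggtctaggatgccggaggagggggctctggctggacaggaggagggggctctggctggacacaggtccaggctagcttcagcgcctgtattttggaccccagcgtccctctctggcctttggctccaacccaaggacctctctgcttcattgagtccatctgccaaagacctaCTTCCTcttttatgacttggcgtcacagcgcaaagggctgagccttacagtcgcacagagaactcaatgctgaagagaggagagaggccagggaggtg
Its only match to the 4 motifs is the ETS core at -48. The letters of the other motifs are not in this window.

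Cd2 encodes an adhesion molecule of T, NK and B cells whose ligand in the mouse is CD48 (probe set 10500677, chromosome 3). It was at 6.71 and 6.75 in Control, 6.38 and 6.43 in EBF1 cells, and 6.51 and 6.31 in Pax5 cells. Both vector groups lay below Control on every array and overlapped each other. Neither change was called, at -0.33 for EBF1 (SE 0.09, adjusted p = 0.12) and -0.32 for Pax5 (SE 0.09, adjusted p = 0.13). The difference between EBF1 and Pax5 cells had a 95% interval of -0.23 to 0.23 (adjusted p = 0.99). The EBF1 change was called without either Pax5 array (adjusted p as low as 0.044) and the Pax5 change without Pax5 1 (0.03).

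**Figure D2:**
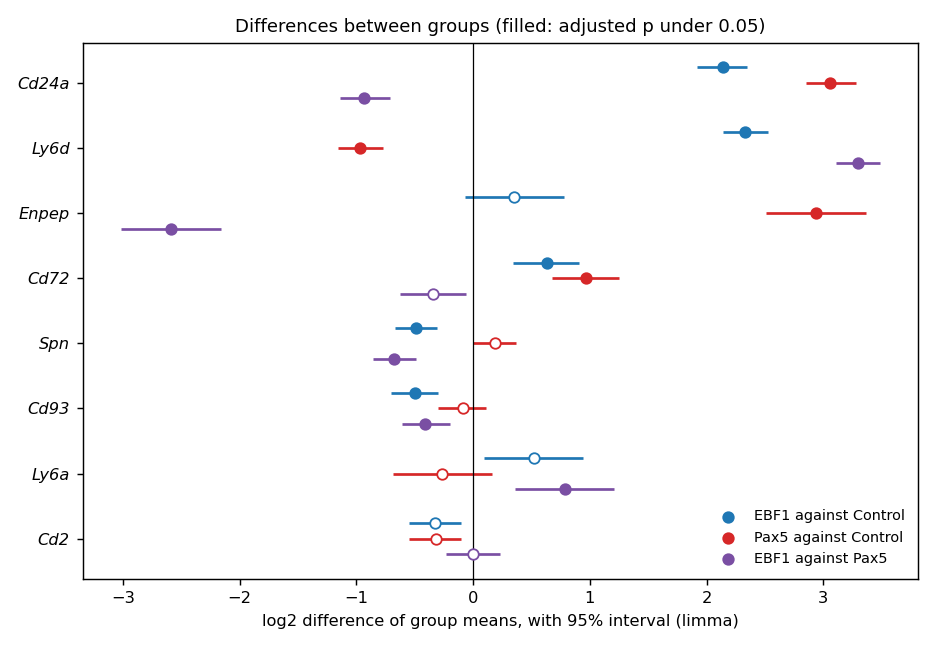
Log2 difference of group means (horizontal axis) with its 95% interval from limma for the 8 tested markers, in EBF1 against Control (blue), Pax5 against Control (red) and EBF1 against Pax5 (purple); filled points passed an adjusted p of 0.05. Ly6d lies on opposite sides of 0 for the 2 factors, Cd24a and Cd72 lie above 0 for both, and Enpep moves away from 0 with Pax5 (2.94) more than with EBF1 (0.35).

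The authors' deposited table held a test per probe set with no sharing of spread between genes. In the authors' deposited table, a step-up p under 0.05 was reached by 6 probe sets for EBF1 against Control, 20 for Pax5 against Control and 449 for Pax5 against EBF1. Among the markers, the authors' deposited table gave Cd24a a step-up p of 0.0494 with Pax5 and 0.0567 with EBF1. For Ly6d with EBF1 the step-up p in the authors' deposited table was 0.0507. Between Pax5 and EBF1 cells, Ly6d (0.0288) and Spn (0.0405) were under 0.05 in the authors' deposited table. The other calls among the markers had larger step-up p-values in the authors' deposited table, among them Enpep with Pax5 (0.102) and between the factors (0.0657). The authors' deposited table also gave 0.0808 for Ly6d with Pax5, 0.0607 for Cd24a between the factors and 0.178 for Cd72 with Pax5.

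Other surface genes were read from 5 lists (94 genes, 75 of them tested) for comparison. Counts of calls in each list stand beside the shares over all tested genes. These were 3.14% higher and 2.47% lower with EBF1, and 2.17% higher and 2.06% lower with Pax5. Between the factors, 8.72% of all tested genes were called higher and 5.21% lower in EBF1 than Pax5 cells. Of 24 tested surface markers of B-cell stages outside the 9, 1 rose and 3 fell with EBF1, with a median change of -0.08 beside 0.009 over all genes. Kit, the stem cell factor receptor, changed by -0.99 (adjusted p = 0.0046) and Cd27, a TNF receptor family member, by -1.04 (adjusted p = 0.018). Il7r, the IL-7 receptor chain, changed by -0.39 (adjusted p = 0.036), and the tetraspanin gene Cd9 rose by 0.81 (adjusted p = 0.027). With Pax5, 2 of the 24 rose and 4 fell, with a median of -0.01 beside -0.037 over all genes. The chemokine receptor gene Cxcr4 was among those that rose (0.41, adjusted p = 0.044), and Il7r (-0.79), Cd180 (-0.52), Flt3 (-0.50) and Cd69 (-0.50) fell. Each call against Control in these lists, other than those of Cd244a with EBF1, was lost without at least 1 array.

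Of 18 tested relatives of Ly6d and Ly6a in the LY6/uPAR family, 1 rose with EBF1 (median 0.07) and 0 with Pax5 (median -0.12), and 0 fell with either in limma. The riser was Lynx1, a GPI-anchored modulator of nicotinic receptors, which was at 4.55 and 4.38 in Control, 5.56 and 5.94 in EBF1 cells and 4.53 and 3.75 in Pax5 cells (1.29 with EBF1, SE 0.26, adjusted p = 0.046). The urokinase receptor gene Plaur was higher in EBF1 than Pax5 cells by 1.00 (adjusted p = 0.01), and Ly6e by 0.41 (adjusted p = 0.02). Plaur lost that call without EBF1 1 (0.076), and Ly6e without either Control or either EBF1 array (up to 0.13). Of 5 tested genes of the CD2 and SLAM family, 1 fell with each factor, in both cases Cd244a (2B4), a receptor that shares the ligand CD48 with CD2. Cd244a fell by 1.24 in EBF1 cells (adjusted p = 0.0021) and by 0.57 in Pax5 cells (adjusted p = 0.024), with family medians of 0.06 and -0.12. The ligand gene Cd48 changed by 0.07 with EBF1 and -0.03 with Pax5, not called.

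Of 13 tested surface ectoenzymes other than Enpep and Bst1, 0 were called against Control with either factor (medians 0.03 and -0.04). With 5.61% and 4.23% of all genes called, 0 calls among 13 genes do not set this list apart. Between the factors, 2 of the 13 were higher in EBF1 than Pax5 cells in limma. These were Erap1 (0.41, adjusted p = 0.019) and Adam17 (0.37, adjusted p = 0.024). Both calls were lost with only the 4 arrays compared. Anpep, another membrane aminopeptidase, changed by -0.06 with EBF1 and -0.04 with Pax5 (adjusted p = 0.82 and 0.83), and Mme (CD10) by 0.09 and -0.02. Among 16 tested ligands and partners of the markers, 0 rose and 1 fell with EBF1, and 1 rose and 1 fell with Pax5 (medians 0.06 and -0.07). Siglecg, which encodes a sialic acid-binding receptor for CD24, was at 3.95 and 3.64 in Control and 4.87 and 4.73 in Pax5 cells, a rise of 1.01 (SE 0.12, adjusted p = 0.011). Its change with EBF1 was 0.17 (adjusted p = 0.54), and EBF1 cells were lower than Pax5 cells (-0.84, adjusted p = 0.01, lost without either EBF1 array). Pstpip1, an adaptor that binds the tail of CD2, fell with Pax5 (-0.68, adjusted p = 0.031), and the kinase gene Lyn fell with EBF1 (-0.37, adjusted p = 0.041). Ptpn6, which encodes SHP-1, was not called against Control, and was higher in EBF1 than Pax5 cells by 0.50 (adjusted p = 0.019, but up to 0.13 without a Control or EBF1 array).

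**Figure D3:**
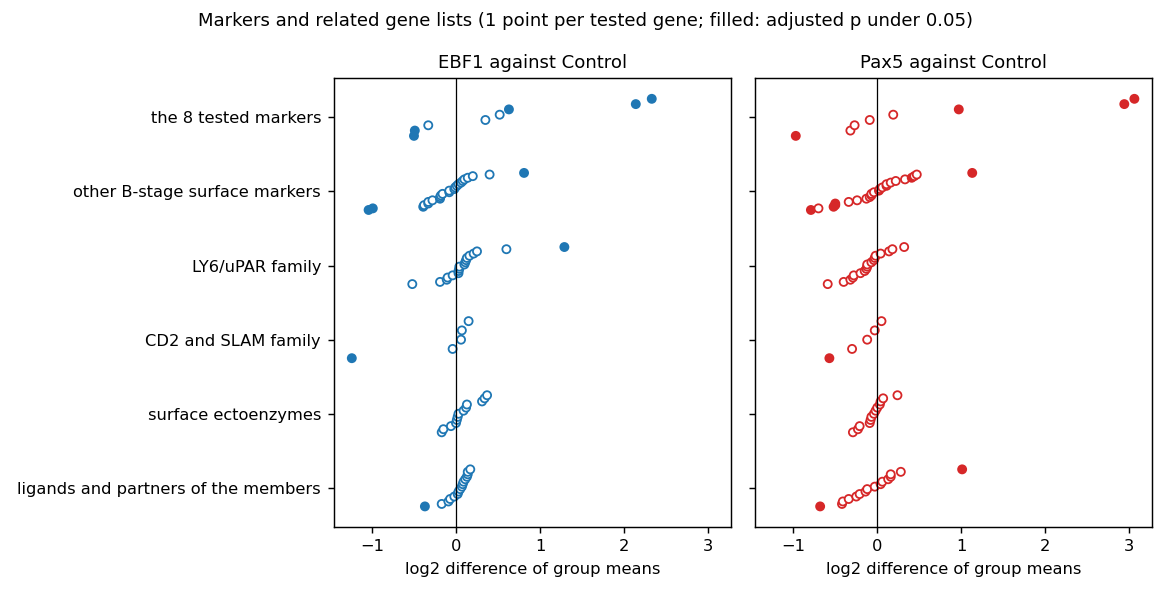
Log2 difference of group means (horizontal axis) for each tested gene of the 8 tested markers and of 5 related lists, in EBF1 against Control (left, blue) and Pax5 against Control (right, red); filled points passed an adjusted p of 0.05. Most genes of the related lists lie near 0, and the ectoenzyme row has no filled point in either comparison.

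The genes that lie next to the markers on the chromosomes were read by a rule added after the results were known: the nearest 2 tested genes on each side in the RefSeq gene order. Of these 36 neighbours, 3 were called higher and 0 lower with EBF1 in limma, beside 3.14% and 2.47% of all genes. With Pax5, 1 was called higher and 1 lower, beside 2.17% and 2.06% of all genes. Between the factors, 7 were called higher and 1 lower in EBF1 than Pax5 cells, beside 8.72% and 5.21% of all genes. Whether these counts set the neighbours apart from other genes was not tested. Elovl6, a fatty acid elongase gene next to Enpep, was at 7.62 and 7.54 in Control, 7.50 and 7.46 in EBF1 cells and 9.65 and 9.81 in Pax5 cells. It rose with Pax5 by 2.16 (SE 0.09, adjusted p = 0.0003), as did Enpep, and changed by -0.09 with EBF1 (adjusted p = 0.66). The Pax5 call held whichever array was left out (adjusted p up to 0.011). Egf, on the same side of Enpep, changed by 0.22 with Pax5 (adjusted p = 0.63), and Ap1ar, on the other, by -0.39 (adjusted p = 0.15), neither of them called.

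Beside Ly6d, the neighbour that changed was Lynx1, described above with its family, while Slurp2, Ly6g6g and Ly6k changed by 0.13 to 0.16 with EBF1 and were not called. Beside Cd72, Sit1, which encodes a signalling adaptor of lymphocytes, was at 3.04 and 2.95 in Control, 4.13 and 3.97 in EBF1 cells and 3.22 and 3.30 in Pax5 cells. It rose with EBF1 (1.06, SE 0.09, adjusted p = 0.0034), and its change with Pax5 was 0.26 (adjusted p = 0.19). The Control values of Sit1 were just above the 30th percentile of those arrays (2.99 and 2.92), so this rise is measured from near the filter. The rise was lost without Control 2 (adjusted p = 0.054). Its direct difference of 0.79 (adjusted p = 0.0045) was opposite in sign to that of Cd72. Beside Spn, AI467606 moved against it: it rose with EBF1 (0.61, adjusted p = 0.011) and fell with Pax5 (-0.40, adjusted p = 0.045). Both calls were lost without either Control or either EBF1 array (adjusted p up to 0.12 and 0.30), and the fall also without Pax5 2. The neighbours of Cd24a, Cd93, Ly6a, Cd2 and Bst1 were not called against Control.

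**Figure D4:**
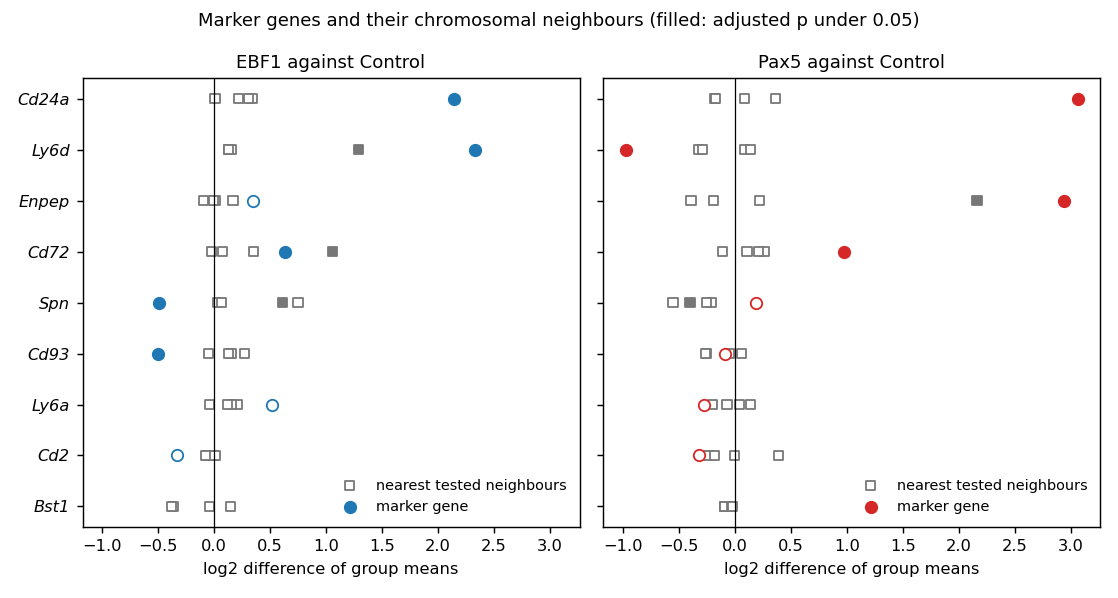
Log2 difference of group means (horizontal axis) for each marker gene (circles) and its nearest tested chromosomal neighbours (grey squares, 4 per marker), in EBF1 against Control (left) and Pax5 against Control (right); filled symbols passed an adjusted p of 0.05, and Bst1 has no circle because it was not tested. The filled square in the Enpep row at the right is Elovl6 (2.16), and those in the Ly6d and Cd72 rows at the left are Lynx1 (1.29) and Sit1 (1.06).

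For each called marker, the genes with the most similar pattern were found as those with the smallest root-mean-square difference over the 6 arrays, each gene centred on its own mean, as a description across arrays. Enpep lay closest to the transcription factor gene Irf4 (root-mean-square difference 0.15), which changed by 0.47 with EBF1 and 3.22 with Pax5, and to the carboxypeptidase gene Cpn1 (0.24). Ly6d lay closest to Cracdl (0.17), with changes of 2.20 and -0.72, and to the focal adhesion gene Parvb (0.33), with 1.98 and -0.52. Cd24a had no close match: lymphotoxin alpha (Lta) was nearest at 0.38, with 2.09 and 2.27, followed by Chchd10 at 0.67. The nearest genes to Cd72 were Lrmp and Crip1 (both 0.10), to Cd93 Ncoa3 (0.02) and Gpr171 (0.03), to Spn Slc25a53 (0.03) and Fbxl17 (0.04), and to Ly6a Qsox2 (0.05) and LOC100036540 (0.07). Small differences mean less for these markers, whose own spread about the mean was 0.22 to 0.41, than for Enpep (1.32), Ly6d (1.39) or Cd24a (1.28).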

How the data were processed

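The input was 50 ng of RNA per array, amplified with a NuGEN system, per the labels' protocols. The authors used RMA and Partek 6.5, per the submitters' processing notes. The deposited log2 values were taken as they are. They equal the log2 values in the authors' second table (largest difference 0), which adds the authors' ratio of group means, p-value and step-up p-value per pair of groups, per the file headers. The options of RMA and the genome build are not stated by any source used.

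Symbols came from the deposited annotation, whose text ends at 255 characters: 22944 probe sets had 1 symbol, 2310 several and 3096 none. Of those with 1, 21320 matched RefSeq identifiers (GRCm38.p6, for names and gene order), and 2403 received a newer symbol. The brightest probe set of each gene was kept if above the array's 30th percentile on at least 2 arrays, leaving 15279 genes. RMA gives no detection call. Precision is limited by the number of arrays.

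The comparisons used limma 3.58.1 under R 4.3.3 (two-sided eBayes after lmFit, 3 group means in 1 model over 6 arrays, 3 residual and 3.18 prior degrees of freedom). The procedure was also run on simulated data with independent arrays. That run cannot check the calls made here, since the arrays of a group may be technical replicates. Named genes are the 9 markers, the 2 nearest patterns per called marker, called genes of the 5 lists (at most 4 per list and comparison, the largest changes first) and the vector genes. Chromosomal neighbours, Cxcr4, Cd69, Flt3, Cd48, Anpep, Mme and the cell type markers (Dntt among them) were named outside this rule, after their values were seen. The members and lists were chosen with earlier results of these data known. Lists of stromal, myeloid, T, NK, plasmacytoid dendritic and erythroid markers were read for other cell types. Alternatives were other eBayes options, filters, probe set rules, normalization, arrays and a replicate block. Some genes of the lists and neighbours are not reported here.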

Additional observations from a re-analysis of the deposited data

How the results depend on the processing

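With 2 arrays per group the precision is limited. The number of markers called with EBF1 (5) became 3 with all probe sets as the unit and 3 with the replicate block, and ran from 2 to 6 without 1 array. The 4 called with Pax5 ran from 2 to 5 and the 6 called between EBF1 and Pax5 from 3 to 6 without 1 array. Among 336 results for single markers, 292 kept their direction and side of the threshold, 37 lost and 5 gained a call, and 2 reversed. The reversals were of Cd2 between EBF1 and Pax5, which ran from -0.10 to 0.10 without 1 array (0.022 without EBF1 1, 0.10 without Pax5 1). The 336 results are not all separate. Leaving out 1 array of the group not compared gave the same fit as only the 4 arrays compared. The number of markers called between EBF1 and Pax5 (6) became 4 with only the 4 arrays compared and 4 with all probe sets as the unit. It became 5 with the replicate block and 7 with trend and robust eBayes. Cd24a held its calls in all 3 comparisons under every alternative run, as did Ly6d with EBF1 and against Pax5, and Enpep with Pax5 and against EBF1.

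Arrays with the same replicate number showed no shared shift over the tested genes. The correlation of the differences between arrays 1 and 2 was 0.0095 for Control and EBF1, 0.0065 for Control and Pax5 and -0.011 for EBF1 and Pax5. These values do not show whether arrays with the same number were handled together, which the labels do not say. With the replicate block, Cd72 and Cd93 with EBF1 and Cd93 between the factors were not called. Over all genes, the 857 called with EBF1 became 1783 with trend and robust eBayes, 1321 with the 50th percentile filter, 558 with all probe sets, 1425 with only the 4 arrays compared and 565 with the block. The 646 with Pax5 became 1639, 1000, 446, 240 and 412, and the 2128 between the factors 3368, 2854, 1674, 1094 and 1741. Without 1 array these counts ran from 103 to 1425, 60 to 2405 and 410 to 3883. The split of the calls moved too: with Pax5, 331 higher and 315 lower became 613 and 1026 with trend and robust eBayes, 437 and 563 with the 50th percentile filter, 863 and 1542 without Pax5 1 and 52 and 8 without Control 1. Between the factors, 1332 and 796 became 1066 and 941 after repeated quantile normalization. The cause was not tested.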
